A study of Ipomoea batatas with 12 samples.

Results

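Drought imposed with polyethylene glycol (DR) was set against the unstressed control (CK) in sweetpotato cv. Xuzishu 8, a purple-fleshed cultivar of Ipomoea batatas. The 3 libraries titled DR1, DR2 and DR3 and the 3 titled CK1, CK2 and CK3 were compared, which are 6 of the 12 libraries of the study. The other 6 libraries came from heat (HT) and from drought with heat (DH), and DR was also set against each of these. All plants were dug from the field and moved to hydroponic culture in Hoagland solution. The DR plants received polyethylene glycol in this solution with no heat, the HT plants heat alone and the DH plants both, whereas the CK plants received neither and stood in another growth chamber at the control temperature. Drought and the change of chamber can therefore not be told apart in DR against CK. Equal amounts of RNA from leaves and storage roots, collected at time points from under an hour to days, were mixed into each pool. The methods describe biological replicates in triplicate without saying which or how many plants entered each pool, and the p-values given here cover only how far these pools spread. In such mixed RNA, fewer cells of a type and less RNA per cell cannot be told apart.

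Polyethylene glycol holds water outside the roots and so lowers the water potential that the plant meets. Plants short of water make abscisic acid (ABA), close their stomata, and make protective proteins, raffinose-type sugars and chaperones, the proteins that keep other proteins folded. Growth, cell wall loosening and parts of secondary metabolism are often held back at the same time, while stored lipid, starch and protein are broken down.

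The deposited values are FPKM, fragments counted per gene and scaled to gene length and library size, for 50592 genes. The table of DR2 ended after 49073 genes and lacked 1519 loci, all with IDs that begin with MSTRG, for which DR1 and DR3 alone give the DR level. The sums of FPKM lay between 1088868 and 1472561 over the 12 libraries. The 10 most abundant genes held 54.9%, 75.3% and 57.4% of the sum in DR1, DR2 and DR3, against 38.4%, 75.6% and 52.4% in CK1, CK2 and CK3. Genes above 0 numbered 18438, 16553 and 24184 in the DR libraries, against 22481, 18026 and 33410 in the CK libraries, so CK3 stood apart in the number of genes detected. Over 11208 genes listed in all tables, the DR libraries correlated with each other at 0.79 to 0.92, and CK1 with CK3 at 0.48. The markers of both tissues were present. The leaf markers, 10 genes of chlorophyll synthesis, carbon fixation and the chloroplast, were above 0 in every DR and CK library, and the sum of the 8 that every table lists was 1171 to 3146 FPKM in DR and 1158 to 7360 FPKM in CK. The 5 storage root markers, all of starch metabolism, summed to 45.3, 6.59 and 12.4 FPKM in DR1, DR2 and DR3. In CK1, CK2 and CK3 they summed to 33.8, 103 and 1756 FPKM. At most 1 of the 5 was at 0 in a DR library and none in CK, and 3 of the 5 passed the filter given below. The marker symbols come from genes that the study selected as changed under stress, so these sums cannot part tissue share from response.

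Genes entered the test where 3 or more of the 12 libraries held an FPKM of 1 or higher, which left 12295. Of these, 72 rose under drought (0.586%) and 24 fell (0.195%), 96 in all (0.781%). Calls were made by limma where the p-value, adjusted by Benjamini-Hochberg over all 12295 genes, was below 0.05 and the log2 fold change exceeded 1 in size. With the replicate number as a block, 110 genes rose (0.895%) and 41 fell (0.333%), among them 71 of the 72 and all 24. The unadjusted p was under 0.05 for 888 genes (7.22%). Raised genes made up 75% of the calls, against 61.3% with median-of-ratios scaling (98 raised, 62 lowered) and 63.5% with quantile normalization (120 raised, 69 lowered). The share was higher, at 87.7%, with a pseudocount of 0.1, at 88.4% with a fit of only DR and CK, and at 93.3% without DR2. Fold changes are given on the log2(FPKM + 1) scale with their standard errors, which understates the change of genes with low values. On this scale the median over all genes tested was 0.07, and 54.2% of them lay above CK on average.

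Many of the raised genes were low in CK. Their median level was 213 FPKM in DR against 0.797 FPKM in CK, and 39 of the 72 averaged below 1 FPKM in CK. Of these, 12 were listed at 0 in all 3 CK libraries. Low CK levels were common, as the median over all genes tested was 2.38, 0.91 and 3.76 FPKM in CK1, CK2 and CK3. The log2 fold changes of the raised genes lay between 2.87 and 10.14 with a median of 5.76. The 12 genes at 0 in CK enter with fitted values that depend on the pseudocount. The lowered genes had a median level of 1.73 FPKM in DR against 97.5 FPKM in CK, with log2 fold changes from -5.72 to -2.84 and a median of -4.28. Each of the 96 called genes had all its DR libraries on one side of all its CK libraries, as had 8.56% of the genes tested with DR above CK and 4.45% with DR below. A symbol was known for 14 of the raised genes and 5 of the lowered genes, while the other 77 called genes carried none. All symbols come from the study's tables of genes that it had selected as changed under stress in these same libraries. The members of the gene lists below were drawn from them, so neither a count nor a median of a list is independent evidence of its direction. Each count of called members below stands beside 0.586% raised and 0.195% lowered over all genes tested.

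**Figure D1:**
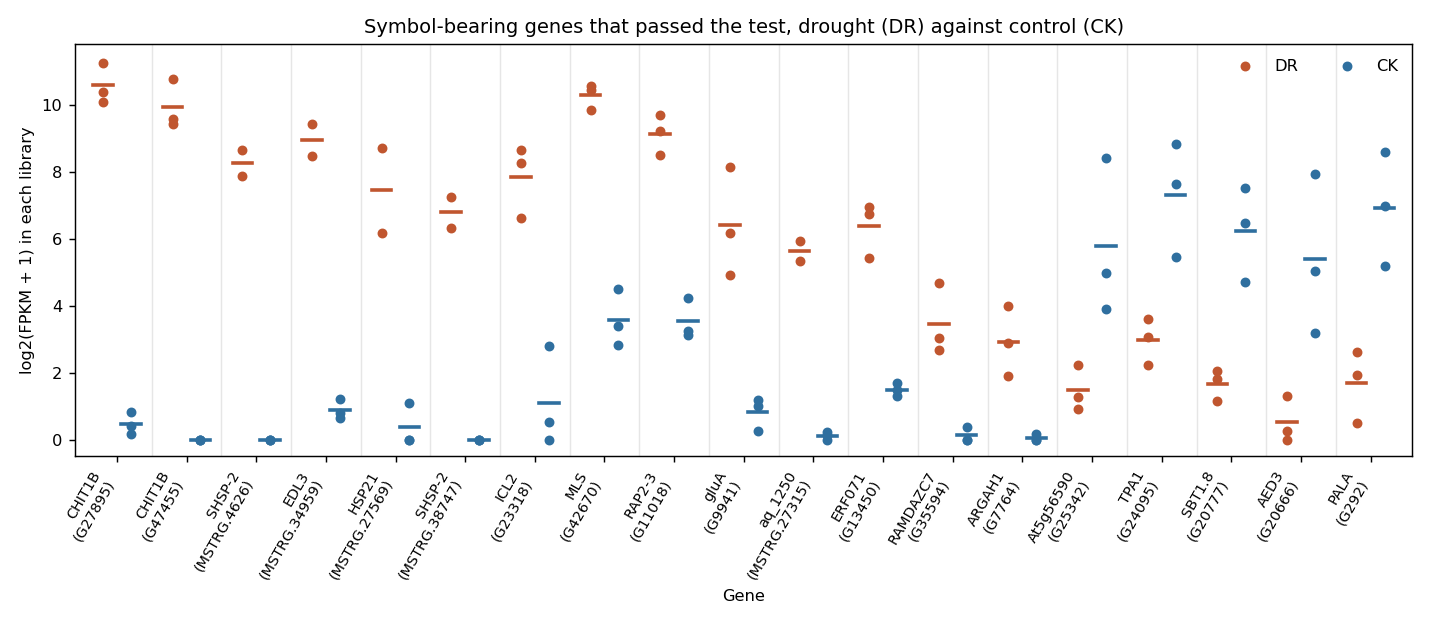
Levels of the 19 called genes that carry a symbol, as log2(FPKM + 1) in each library, with DR left of CK and a bar at the group mean. Each point is 1 library, and DR shows only 2 points for genes that DR2 does not list. The DR and CK points of each gene do not overlap, with 14 genes higher in DR and 5 lower.

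Chitinases, which cut the chitin of fungal walls and are produced by plants under many stresses, gave the largest log2 fold change on the log2(FPKM + 1) scale. The CHIT1B copy G27895, a basic endochitinase, had 1102, 1360 and 2479 FPKM in DR1, DR2 and DR3, against 0.77, 0.32 and 0.12 FPKM in CK1, CK2 and CK3. The lowest DR library thus stood 1431 times above the highest CK library. The log2 fold change was 10.14 ± 1.31 with an adjusted p of 0.000145 by limma. The second copy, G47455, had 698, 767 and 1783 FPKM in DR and was listed at 0 in all 3 CK libraries, with an adjusted p of 0.000145. Both copies were called without each library in turn. The copies are close relatives and reads may be shared between them, so the level of each is uncertain. The third member of the list, the chitinase EP3, did not pass, with 3.15 and 2.96 FPKM in DR1 and DR3 against 0.08, 0 and 0 FPKM in CK. The list had 2 of 3 members raised and a median of 9.95, the fitted value of G47455, which is no bound because that copy was at 0 in CK.

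The glyoxylate cycle, which lets plants build sugar from the acetyl units of broken down fatty acids, had 1 raised locus for each of the enzymes that are its own. Malate synthase (MLS, G42670) had 931, 1524 and 1408 FPKM in DR, against 6.10, 9.56 and 21.5 FPKM in CK. The lowest DR library was 43.3 times the highest CK library. MLS rose by 6.73 ± 1.14 on the log2 scale (adjusted p = 0.00312 by limma) and was called without each library in turn. Isocitrate lyase (ICL2, G23318) had 403, 97.9 and 307 FPKM in DR, against 6, 0.43 and 0 FPKM in CK, a log2 fold change of 6.74 ± 1.25 (adjusted p = 0.00653 by limma). The DR libraries lay above the CK libraries, but the call was lost without DR1, DR3 or CK3, with adjusted p-values of up to 0.0755. A further ICL2 copy, G23306, had 3.64, 5.87 and 20.7 FPKM in DR and 0.05, 0 and 0 FPKM in CK, and did not pass (adjusted p = 0.168). ACX2, an acyl-CoA oxidase that opens the breakdown of long fatty acids in the peroxisome, had 32.9, 26.1 and 72.1 FPKM in DR against 2.92, 4.96 and 0.88 FPKM in CK without passing (log2 fold change 3.53 ± 1.08, adjusted p = 0.175). In all, 2 of the 4 members were raised, and the median was 5.13. The 4 lay above CK without overlap, as did 8.56% of all genes tested.

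The study designed primers for these enzymes, which are printed in lower case, 5′ to 3′, to identify the transcripts that the values of MLS and ICL2 belong to.
MLS G42670 forward: ggagttcagaggccatgttaag
MLS G42670 reverse: gtatttggtggcgggaatca
ICL2 G23318 forward: cgtacgatacggtgcctaataa
ICL2 G23318 reverse: cctacctgctcatgttcattct

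Enzymes of amino acid breakdown were higher in DR in 4 of 5 members, of which 1 passed. Arginase (ARGAH1, G7764), which releases urea from arginine in mitochondria, had 2.73, 6.42 and 14.9 FPKM in DR, against 0, 0.12 and 0 FPKM in CK. The log2 fold change was 2.87 ± 0.69 (adjusted p = 0.0438 by limma), the smallest among the raised genes. This call was lost without DR2, DR3, any CK library, HT1 or any DH library, with adjusted p-values of up to 0.259. The tyrosine-degrading dioxygenase HPD (G38888) had 318, 153 and 337 FPKM in DR, against 21.1, 19.1 and 18.7 FPKM in CK. The lowest DR library was 7.28 times the highest CK library, but HPD did not pass (log2 fold change 3.63 ± 1.02, adjusted p = 0.108). HGO (G234), the dioxygenase that follows HPD, had log2 fold change 3.26 ± 1.17 (adjusted p = 0.329), and the aminotransferase At3g08860 (G10497) had 3.07 ± 0.98 (adjusted p = 0.217). The median of the list was 3.07, and the fifth member, glutamate dehydrogenase GDH3, overlapped CK with 0.72, 0.26 and 17.6 FPKM in DR and 4.54, 1.73 and 1.68 FPKM in CK.

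Of 13 chaperones 3 rose, all of them loci of small heat shock proteins, which are best known from heat. The SHSP-2 locus MSTRG.4626 had 238 and 405 FPKM in DR1 and DR3 and was listed at 0 in all 3 CK libraries (adjusted p = 0.000145 by limma). The second SHSP-2 locus, MSTRG.38747, had 79.8 and 152 FPKM in DR1 and DR3, and was likewise listed at 0 in CK (adjusted p = 0.00025). Both were called without each library in turn, although each rests on 2 DR libraries. HSP21 (MSTRG.27569), a small heat shock protein of the chloroplast, had 72.1 and 422 FPKM in DR1 and DR3, against 1.13, 0 and 0 FPKM in CK. It rose by 7.10 ± 1.28 on the log2 scale (adjusted p = 0.00529 by limma), and the call was lost without DR3 (adjusted p = 0.251). The remaining 10 of 13 chaperones did not pass. HSP17.4B (MSTRG.37536) had 43.8 and 28.5 FPKM in DR against 4.95, 0.45 and 0.18 FPKM in CK (adjusted p = 0.108), whereas HSP90 (G17562) and the chaperone CAL1 (G32946) lay below CK on average, with log2 fold changes of -1.77 and -1.97 and overlapping groups. The median of the 13 was 2.08, and 6 of them lay above CK without overlap, as did 8.56% of all genes tested.

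In the ABA list, 1 of 4 members passed. EDL3 (MSTRG.34959), an F-box protein that in Arabidopsis acts in ABA signalling, had 357 and 697 FPKM in DR1 and DR3, against 1.33, 0.73 and 0.57 FPKM in CK. EDL3 rose by 8.08 ± 1.33 on the log2 scale (adjusted p = 0.00308 by limma), with the lower DR library 268 times above the highest CK library. The call was lost without DR3 (adjusted p = 0.0776). CYP707A2 (MSTRG.35318), an enzyme that breaks down ABA, had 4.72 and 9.22 FPKM in DR and 0.28, 0 and 0 FPKM in CK without passing (adjusted p = 0.402). The seed protein LEGB had 16.7 and 5.52 FPKM in DR against 1.98, 0.54 and 0 FPKM in CK (adjusted p = 0.556). RAB28, a late embryogenesis protein, had 2.81 FPKM in DR1 and was listed at 0 in the other DR and CK libraries. The median of the list was 2.75. None of the 4 raffinose genes passed. GOLS2 (G19634), a galactinol synthase that opens the raffinose route, had 14.2, 12.4 and 25.3 FPKM in DR against 2.16, 1.15 and 0.98 FPKM in CK (log2 fold change 2.88 ± 1.08, adjusted p = 0.381). The second GOLS2 copy, G45635, reached 2.28 ± 1.12 and the raffinose synthase RFS6 (G41031) 1.73 ± 1.02, and the list had a median of 2.00.

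Of 14 transcription regulators, 2 rose, both ethylene response factors of the group that in Arabidopsis responds to low oxygen. RAP2-3 (G11018) had 836, 363 and 603 FPKM in DR, against 8.56, 17.9 and 7.71 FPKM in CK. RAP2-3 rose by 5.61 ± 0.998 on the log2 scale (adjusted p = 0.00422 by limma) and was called without each library in turn. ERF071 (G13450) had 125, 42.0 and 106 FPKM in DR, against 2.24, 1.81 and 1.46 FPKM in CK, a log2 fold change of 4.88 ± 1.03 (adjusted p = 0.0197 by limma). In both factors DR1 was the highest and DR2 the lowest DR library. The ERF071 call was lost without DR1, DR3, CK2 or CK3, with adjusted p-values of up to 0.151. TGA6 (MSTRG.21623), a bZIP factor, had 4.31 and 38.6 FPKM in DR1 and DR3 and was listed at 0 in CK (adjusted p = 0.082). LBD4 (G35460), of a plant family of organ boundary regulators, had 1.70, 3.49 and 1.16 FPKM in DR and 6.04, 11.7 and 108 FPKM in CK (log2 fold change -2.85 ± 0.995, adjusted p = 0.30). Over the 14 members, 7 lay above and 7 below CK on average, with a median of 0.34.

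Hormone lists outside ABA gave no call. LOX2.1 (G9582), a lipoxygenase at the start of jasmonate synthesis, had 5.45, 7.27 and 46.3 FPKM in DR, against 0.27, 0 and 0.27 FPKM in CK. It did not pass (log2 fold change 3.54 ± 1.06, adjusted p = 0.151), but passed with the replicate number as a block (adjusted p = 0.0375). The OPR3 copies G11747 and G20440, reductases of the same route, differed by -1.81 ± 1.09 and -1.75 ± 1.10 with overlapping groups, and the median of the 3 members was -1.75. Among the 4 genes of auxin and cytokinin, with a median of -0.02 that was 0.79 without CK1, GH3.1 (G24597), which conjugates auxin, had 11.1, 9.54 and 17.9 FPKM in DR and 1.28, 1.71 and 1.19 FPKM in CK (adjusted p = 0.834). CKX7, a cytokinin oxidase, differed by -2.16 ± 0.97. The auxin carrier AUX1 differed by -1.20 ± 1.01, and by 0.16 without CK1.

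Enzymes that hydrolyse wall polysaccharides were above CK in 9 of the 10 members tested, of which 1 passed. The beta-glucosidase gluA (G9941) had 29.3, 71.8 and 283 FPKM in DR, against 1.26, 1.01 and 0.20 FPKM in CK. It rose by 5.60 ± 1.15 on the log2 scale (adjusted p = 0.0165 by limma), and the call was lost without DR2, DR3, CK2 or CK3, with adjusted p-values of up to 0.206. The mannanase MAN2 locus MSTRG.33886 had 26.9 and 79.6 FPKM in DR1 and DR3 against 0.46, 0.95 and 0.48 FPKM in CK without passing (log2 fold change 4.88 ± 1.53, adjusted p = 0.201), and MSTRG.33887 gave 4.06 ± 1.36. The median of the list was 1.92. The member below CK was the BACOVA_02659 copy G35534, with 16.7, 45.5 and 46.5 FPKM in DR and 48.1, 162 and 164 FPKM in CK (-1.69 ± 0.93, adjusted p = 0.837). Outside this list, At5g56590 (G25342), an endoglucanase of the beta-1,3 type, had 1.43, 0.89 and 3.72 FPKM in DR and 347, 30.6 and 14.1 FPKM in CK. At5g56590 fell by 4.30 ± 1.02 on the log2 scale (adjusted p = 0.0399 by limma). This call was lost without any DR library, CK1, CK2, HT1, DH1 or DH3, with adjusted p-values of up to 0.178.

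Of the 4 members tested in the list of proteases and inhibitors, 2 fell and 1 rose. The aspartyl protease AED3 (G20666), known from the space outside the cell in Arabidopsis, had 1.47, 0.19 and 0 FPKM in DR, against 8.15, 31.8 and 248 FPKM in CK. AED3 fell by 4.88 ± 1.05 on the log2 scale (adjusted p = 0.0217 by limma), and the call was lost without any DR library, CK2 or CK3, with adjusted p-values of up to 0.192. The subtilisin-like protease SBT1.8 (G20777) had 1.22, 3.16 and 2.50 FPKM in DR, against 25.4, 87.6 and 184 FPKM in CK. SBT1.8 fell by 4.57 ± 0.93 (adjusted p = 0.0158 by limma), a call lost without DR1, DR3, CK2 or CK3, with adjusted p-values of up to 0.096. RAMDAZC7 (G35594), a cysteine proteinase inhibitor, had 7.25, 5.39 and 24.7 FPKM in DR and 0.31, 0 and 0 FPKM in CK. It rose by 3.34 ± 0.72 (adjusted p = 0.0217 by limma). The call was lost without CK2 or CK3, with adjusted p-values of up to 0.109, and the gene fell below the filter without any DR library. Only DR libraries of this gene reached 1 FPKM, so it entered the test through DR alone. These 4 of 5 members had a median of -2.89.

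The shikimate and phenylpropanoid genes, which lead to lignin, chlorogenic acids and flavonoids, were lower in DR than in CK on average. Of the 11 genes 10 were tested and 2 fell. The 10 lay below CK on average, 8 of them without overlap, beside 4.45% of all genes tested. The median of the 10 was -3.15 beside 0.07 over all genes. The choice of members from genes selected on these libraries bears on the count and on the median of the 10. PALA (G292), a phenylalanine ammonia-lyase at the entry of the route, had 2.78, 0.41 and 5.15 FPKM in DR, against 391, 127 and 35.6 FPKM in CK. The lowest CK library was 6.91 times the highest DR library. PALA fell by 5.26 ± 0.99 on the log2 scale (adjusted p = 0.00719 by limma), a call lost without DR2 (adjusted p = 0.065). TPA1 (G24095) had 3.68, 7.45 and 11.2 FPKM in DR, against 42.9, 199 and 457 FPKM in CK, and fell by 4.34 ± 1.03 (adjusted p = 0.0402 by limma). Its call was lost without any DR library, CK2, CK3 or DH3, with adjusted p-values of up to 0.229. The other TPA1 copy, G23716, had 13.7, 30.1 and 40.6 FPKM in DR and 145, 504 and 1101 FPKM in CK without passing (adjusted p = 0.082). In both copies each library kept the same order, with DR1 and CK1 the lowest and DR3 and CK3 the highest of their groups. The storage root marker sum was lower in DR than in CK except that DR1 exceeded CK1, and its part in these values was not tested.

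**Figure D2:**
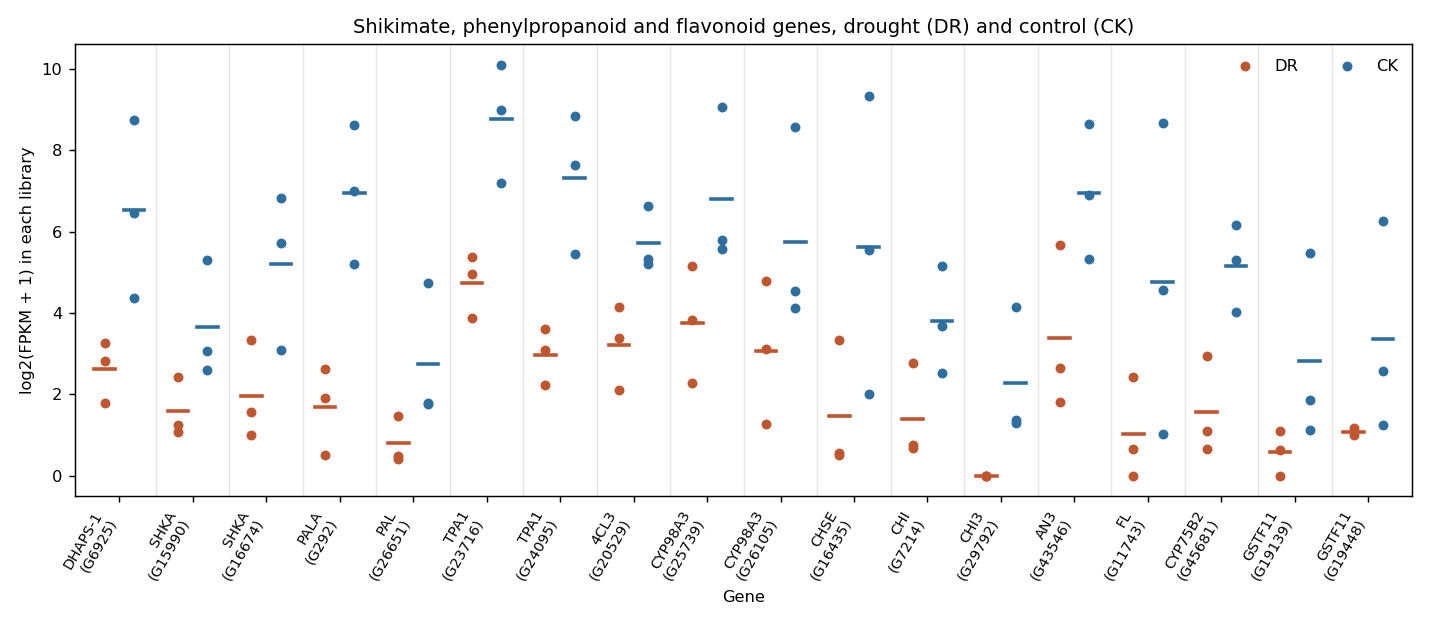
Levels of the 10 tested genes of the shikimate and phenylpropanoid list and the 8 of the flavonoid list, as log2(FPKM + 1) in each library, with DR left of CK and a bar at the group mean. The DR mean lies below the CK mean in all 18 genes, of which PALA and TPA1 (G24095) passed.

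The flavonoid genes gave no call. The 8 tested of 9 members lay below CK on average, with a median of -2.98. Of these, 4 lay below without overlap, beside 4.45% of all genes tested. The hydroxylase CYP75B2 (G45681), which adds a hydroxyl group to the flavonoid B-ring, had 6.68, 0.58 and 1.13 FPKM in DR, against 70.0, 15.2 and 38.5 FPKM in CK. It missed the threshold (log2 fold change -3.59 ± 0.92, adjusted p = 0.0666) and passed with the replicate number as a block (adjusted p = 0.033). Chalcone synthase CHSE (G16435), the first enzyme of the flavonoid route, had 9.10, 0.47 and 0.42 FPKM in DR and 640, 45.4 and 2.99 FPKM in CK (log2 fold change -4.15 ± 1.23, adjusted p = 0.144). The flavonol synthase FL (G11743) had 4.35, 0 and 0.57 FPKM in DR against 403, 22.8 and 1.02 FPKM in CK (adjusted p = 0.22). DR1 and CK1 were the highest of their groups in CHSE and in FL, and the groups overlapped. The polyphenol oxidases, which brown cut tissue by oxidising phenols, gave no call in 4 members, with a median of -3.00. The catechol oxidase co-1 (G16137) had 98.2, 43.3 and 222 FPKM in DR and 630, 1063 and 3820 FPKM in CK (log2 fold change -3.78 ± 1.04, adjusted p = 0.0991), and passed with the block (adjusted p = 0.0398). The co-2 loci MSTRG.36749 and MSTRG.36748 differed by -3.98 ± 1.18 and -2.22 ± 1.02.

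Starch and sucrose genes, 8 of 12 tested, gave no call. On average 3 of them lay above CK and 5 below. The beta-amylase BMY1 (G48653) had 22.2, 2.34 and 0.35 FPKM in DR, against 24.8, 56.5 and 753 FPKM in CK (log2 fold change -4.46 ± 1.27, adjusted p = 0.117). The starch phosphorylase PHO1 (G6471) had 1.22, 0.15 and 0.33 FPKM in DR, against 1.54, 7.36 and 187 FPKM in CK (adjusted p = 0.186). For both genes the groups did not overlap, and CK3 held most of the CK level. The beta-amylase BAM1 (G29406), which in Arabidopsis degrades starch in chloroplasts under osmotic stress, had 78.7, 15.3 and 35.5 FPKM in DR against 7.13, 2.08 and 2.61 FPKM in CK without passing (log2 fold change 3.01 ± 1.18, adjusted p = 0.439). The list had a median of -1.05. BMY1 and PHO1 are themselves among the storage root markers, and the share of root RNA in these values was not tested.

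Genes of photosynthesis gave no call. Chlorophyll synthesis had a median of -0.13 over 6 genes, and 0 of them passed by limma, with 0 at an unadjusted p under 0.05. Without CK1 this median was 0.39. The cyclase subunit CRD1 (G16398) had 687, 888 and 1718 FPKM in DR, against 3504, 1211 and 533 FPKM in CK, a log2 fold change of -0.37 ± 1.10 that turned to 0.34 without CK1. The copy G16412 had 274, 361 and 651 FPKM in DR and 1202, 569 and 510 FPKM in CK (-0.81 ± 1.05). GUN4, the activator of magnesium chelatase, had 23.1 and 109 FPKM in DR1 and DR3 and 282, 157 and 137 FPKM in CK (-1.83 ± 1.11, adjusted p = 0.926). The 2 loci of chlorophyll breakdown lay above CK without passing. The oxygenase PAO, which opens the chlorophyll ring, had 52.2, 37.5 and 48.4 FPKM in DR against 3.77, 4.78 and 9.27 FPKM in CK at G37287 (2.83 ± 0.95, adjusted p = 0.263), and its copy G37418 gave 2.71 ± 0.96. In carbon fixation and plastid carbon, 8 of 10 genes were tested and none passed. All 8 lay below CK on average with a median of -1.11, but without CK1 the median was 0.21 and 4 of 7 lay above CK. The dicarboxylate transporter DIT1 had 12.4, 21.0 and 40.5 FPKM in DR, against 430, 126 and 248 FPKM in CK, at G25883 (-3.37 ± 0.93, adjusted p = 0.101). Its copy G41157 gave -3.34 ± 0.92 (adjusted p = 0.10), and the aldolase ALDP gave -1.89 ± 1.21.

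Genes of growth and water transport gave no call and lay below CK on average. All 10 genes of wall loosening (expansins and xyloglucan transferases) were lower than CK on average, with a median of -1.77. Without CK1 only 7 were, with XTH1 (G230) no longer tested, and without DR2 only 9 were. XTH32 (G26672) had 3.92, 2.70 and 1.03 FPKM in DR and 5.94, 33.9 and 62.0 FPKM in CK (-2.90 ± 0.95, adjusted p = 0.238), EXPA4 differed by -2.10 ± 0.92 and XTH1 (G230) by -2.08 ± 0.63. Only the CK libraries of XTH1 reached 1 FPKM, so it entered the test, and the count of 10, through CK alone. In cellulose and microtubules, 5 of 6 genes were tested, with a median of -1.34. The endoglucanase KOR (G15032), needed to make cellulose, had 37.2, 16.1 and 15.3 FPKM in DR against 98.1, 131 and 259 FPKM in CK (-2.77 ± 0.96, adjusted p = 0.285). The alpha-tubulin TUBA3 (G2000) differed by -2.13 ± 1.11 and the beta-tubulin TUBB5 by -1.34 ± 1.01, the second turning to 0.12 without CK3. Among 3 aquaporins, water channels with a median of -1.71, PIP2-7 (G27911) had 170, 17.2 and 303 FPKM in DR and 11119, 342 and 7.63 FPKM in CK. Its log2 fold change of -1.71 ± 1.64 turned to 0.85 without CK1, as did that of TIP1-1 (-0.44 ± 1.16, 0.89 without CK1). TIP1-3 differed by -2.19 ± 1.08.

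Of the cuticle and lipid genes, the lipid transfer protein LTP1 (G25650), which carries lipids outside the cell, had 2480, 4470 and 8923 FPKM in DR, against 443, 220 and 235 FPKM in CK. LTP1 was above CK in 3 of 3 libraries and missed the threshold (4.02 ± 0.99, adjusted p = 0.0531), but passed with the block (adjusted p = 0.0455). The fatty acid hydroxylase CYP86A22 differed by -2.36 ± 1.09 and FDH (MSTRG.43791), of cuticle synthesis, by -1.16 ± 1.26, and the 5 members had a median of -1.12. That median was 0.15 without CK1, with 3 of the 5 above CK, and -2.54 without CK3. In the methyl cycle, which supplies methyl groups to lignin and other products, 3 of 5 genes were tested, with a median of -1.78. SAHH (G12408), the hydrolase of this cycle, had 1.82, 0.79 and 0.86 FPKM in DR and 17.3, 16.3 and 30.6 FPKM in CK. It missed the threshold (-3.35 ± 0.88, adjusted p = 0.0796) and passed with the block (adjusted p = 0.0257). METK3 differed by -1.78 ± 0.95 and METE (G17900) by -1.57 ± 0.94. None of the 4 ascorbate genes passed, with a median of -1.07, LGALDH at -1.41 ± 0.67, VTC2 (G16532) at -1.13 ± 1.10 and At5g28840 at -1.02 ± 0.98.

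**Figure D3:**
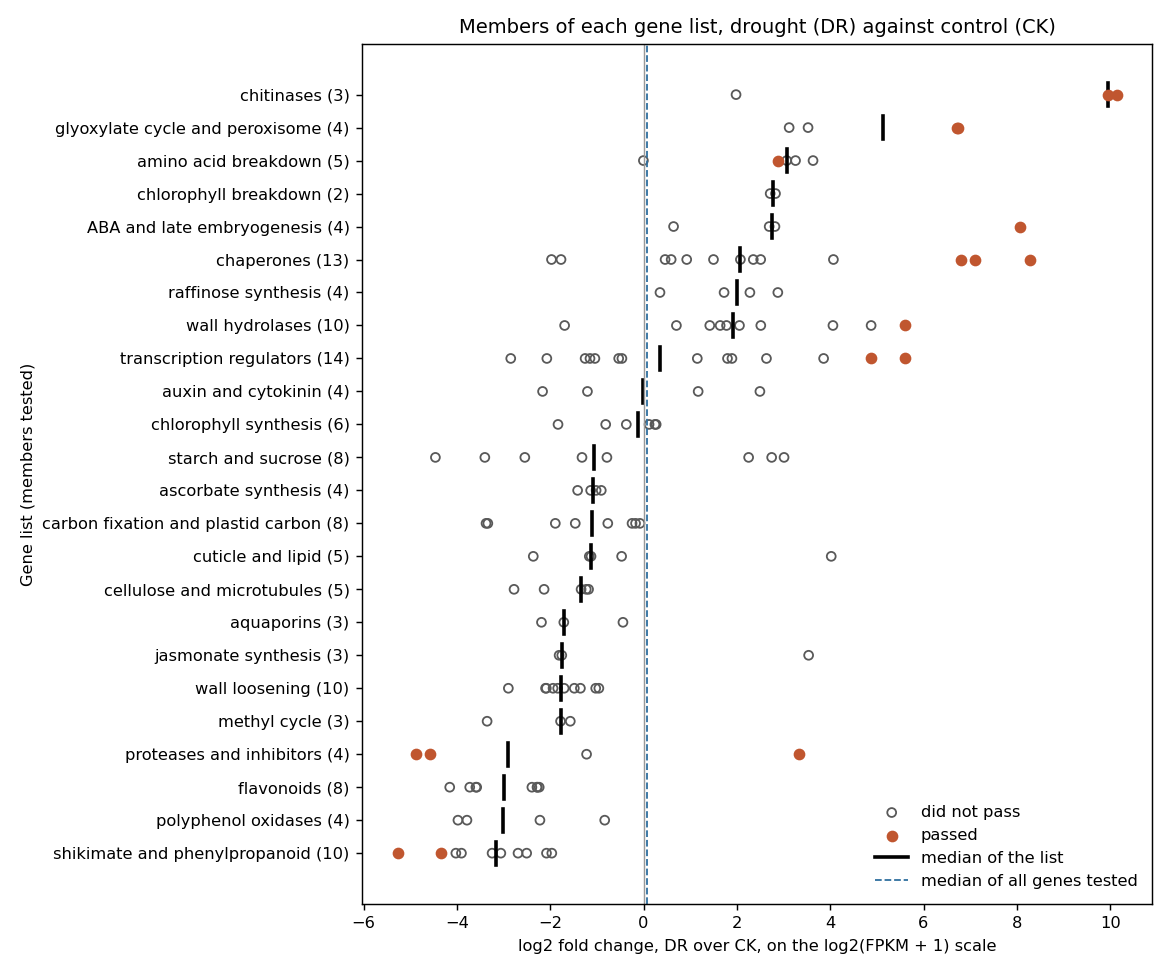
Log2 fold change of each tested member of the 24 gene lists, DR over CK on the log2(FPKM + 1) scale, with filled points for members that passed, open points for those that did not, a black bar at the median of each list and a dashed line at the median of all genes tested (0.07). Chitinases (9.95) and the glyoxylate cycle (5.13) have the highest medians and the shikimate and phenylpropanoid genes (-3.15) the lowest.

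Over the 24 lists, 144 of 157 genes passed the filter on low values, of which 13 rose and 4 fell, beside 0.586% and 0.195% of all genes tested. The members came from genes that the study had selected as changed in these libraries, so these counts are no independent evidence. The largest changes outside the lists belonged to genes without a symbol. G42351 had 489, 812 and 3467 FPKM in DR against 0, 0 and 0.18 FPKM in CK, and G34013 had 744, 1055 and 1782 FPKM in DR against 0.66, 0.23 and 0 FPKM in CK. G34016 had 423, 542 and 1835 FPKM in DR and was listed at 0 in CK. These 3 genes were called without each library in turn, each with DR3 as the highest DR library. Of 57 raised genes listed in all 3 DR tables, DR3 was the highest in 36, DR1 in 14 and DR2 in 7. Downward, G13589 had 1.12, 0 and 0 FPKM in DR against 13.7, 69.0 and 302 FPKM in CK. G2503 had 2.00, 0.36 and 3.56 FPKM in DR against 225, 75.1 and 53.0 FPKM in CK. G937 had 13.6, 6.08 and 28.8 FPKM in DR and 2116, 824 and 96.4 FPKM in CK, a call lost without DR1, DR2 or CK2, with adjusted p-values of up to 0.0788. The raised locus aq_1250 (MSTRG.27315) had 39.3 and 60.0 FPKM in DR1 and DR3 and 0.09, 0 and 0.18 FPKM in CK (5.51 ± 1.23, adjusted p = 0.0299 by limma), a call lost without DR1, DR3, CK2, CK3 or HT1 (adjusted p up to 0.357).

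Single libraries decided many calls. Without DR1, DR2 or DR3, 35, 42 and 24 genes rose and 7, 3 and 5 fell. Without CK1, CK2 or CK3, 85, 32 and 23 genes rose and 35, 7 and 14 fell. Leaving out an HT or DH library gave 63 to 106 raised and 15 to 35 lowered genes. Such a library enters through the shared spread and through the filter, which then left 11411 to 12280 genes tested. Where a locus that DR2 does not list lost a further DR library, the lone DR value was assumed to vary like the other groups. Of the 72 raised genes 16 were called without each library in turn, among them CHIT1B (both copies), SHSP-2 (both loci), MLS and RAP2-3. Of the 24 lowered genes 2 were, G13589 and G2503.

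**Figure D4:**
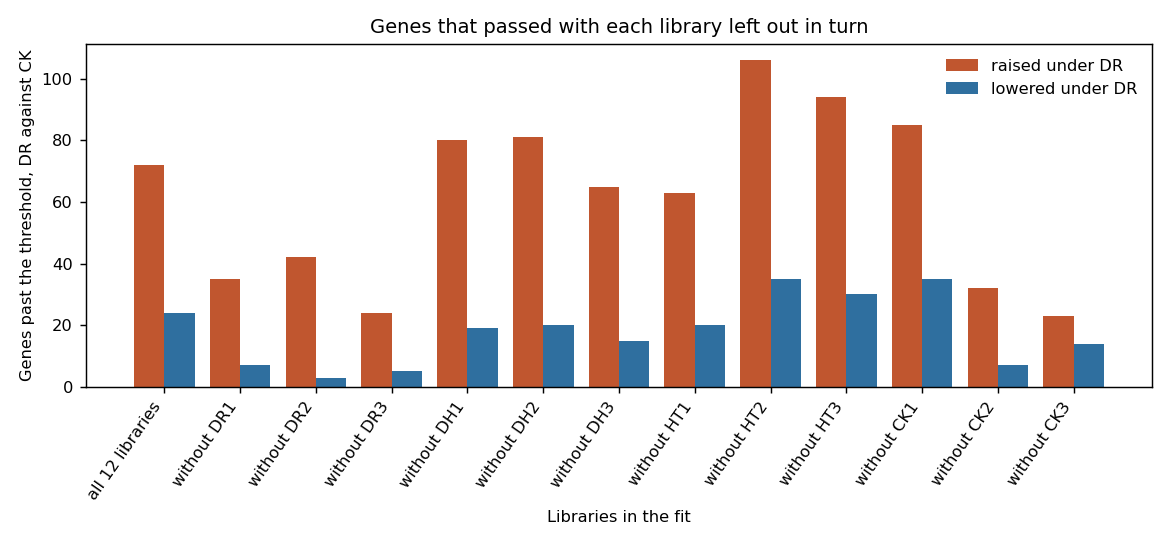
Number of genes raised and lowered in DR against CK with all 12 libraries and with each library left out in turn. The count of raised genes is 72 with all libraries and lowest without CK3 (23), and that of lowered genes is 24 with all libraries and lowest without DR2 (3).

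Drought alone was then set against heat alone, which asks where the single stresses differ. Of the 12295 genes, 6 were higher in DR than in HT (0.0488%) and 2 were lower (0.0163%), with 898 at an unadjusted p under 0.05 (limma). SHSP-2 MSTRG.38747 was listed at 0 in all 3 HT libraries, against 79.8 and 152 FPKM in DR1 and DR3 (adjusted p = 0.000874 by limma). SHSP-2 MSTRG.4626 had 0, 0 and 0.17 FPKM in HT, against the 238 and 405 FPKM of DR1 and DR3, a log2 fold change of 8.21 ± 1.01 (adjusted p = 0.000356 by limma). Both SHSP-2 calls were kept without each library in turn. The other 4 higher genes had no symbol and are named after their values were seen. MSTRG.21000 had 304 and 381 FPKM in DR1 and DR3 and 3.88, 0 and 0.77 FPKM in HT, MSTRG.6512 had 44.9 and 55.04 FPKM in DR and 0, 0 and 1.40 FPKM in HT, and MSTRG.45150 had 27.1 and 176 FPKM in DR and was listed at 0 in HT. G34785 had 8.81, 4.79 and 23.5 FPKM in DR and was listed at 0 in all HT, DH and CK libraries. Only its DR libraries reached 1 FPKM, so it entered this test and that against DH through DR alone. Lower in DR were G15958, with 35.7, 5.08 and 9.45 FPKM in DR and 606, 758 and 581 FPKM in HT, and G42963, with 62.7, 3.73 and 8.25 FPKM in DR and 480, 524 and 1115 FPKM in HT. Calls of these 6 genes depended on single libraries. G15958 was lost without DR2, DR3 or HT1 (adjusted p up to 0.228), G42963 without DR2, DR3, HT1 or HT3 (up to 0.377) and G34785 without HT1 or HT3 (up to 0.173). MSTRG.21000 was lost without DR1 or DR3 (up to 0.268) and MSTRG.6512 without DR1, DR3, DH3 or HT1 (up to 0.673). G34785 fell below the filter without any DR library, and MSTRG.45150 did so without DR1, DR3 or DH1.

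Against drought with heat, 5 genes were higher in DR than in DH (0.0407%) and 0 were lower (limma, 435 genes at an unadjusted p under 0.05). The median log2 fold change over all genes tested was 0.40, and 0.15 with upper-quartile scaling. In DH2 the 10 most abundant genes held 89.7% of the sum of FPKM. The part of this shift in the calls was not tested. SHSP-2 MSTRG.38747 had 79.8 and 152 FPKM in DR1 and DR3 and 3.16, 1.04 and 4.81 FPKM in DH, a log2 fold change of 4.92 ± 0.92 (adjusted p = 0.0453 by limma). The call was lost without any DR or DH library, HT1, HT3 or CK2, with adjusted p-values of up to 0.717. SHSP-2 MSTRG.4626 had 45.5, 5.40 and 18.7 FPKM in DH, all below DR1 and DR3, and did not pass (4.11, adjusted p = 0.264). The other 4 genes, again without a symbol and named after their values were seen, were G34785, MSTRG.45150, G30899 and G3755. G30899 had 393, 188 and 35.5 FPKM in DR and 1.31, 0 and 1.47 FPKM in DH, and G3755 had 1704, 2938 and 4924 FPKM in DR and 30.5, 10.3 and 52.3 FPKM in DH. G30899 was lost without DR1, DR2, any DH library, HT1 or HT3 (adjusted p up to 0.30), and G3755 without any DR or DH library, HT1, HT3 or CK2 (up to 0.606). G34785 and MSTRG.45150 were each lost, or fell below the filter, without any DR or DH library, HT1, HT3 or CK2. G3755 also did not pass with the replicate number as a block (adjusted p = 0.0804). The drought effect without heat and that with heat differed for 0 genes by the interaction test of limma, with 647 genes at an unadjusted p under 0.05. The median of this difference over all genes tested was 0.73, and 0.04 with upper-quartile scaling.

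**Figure D5:**
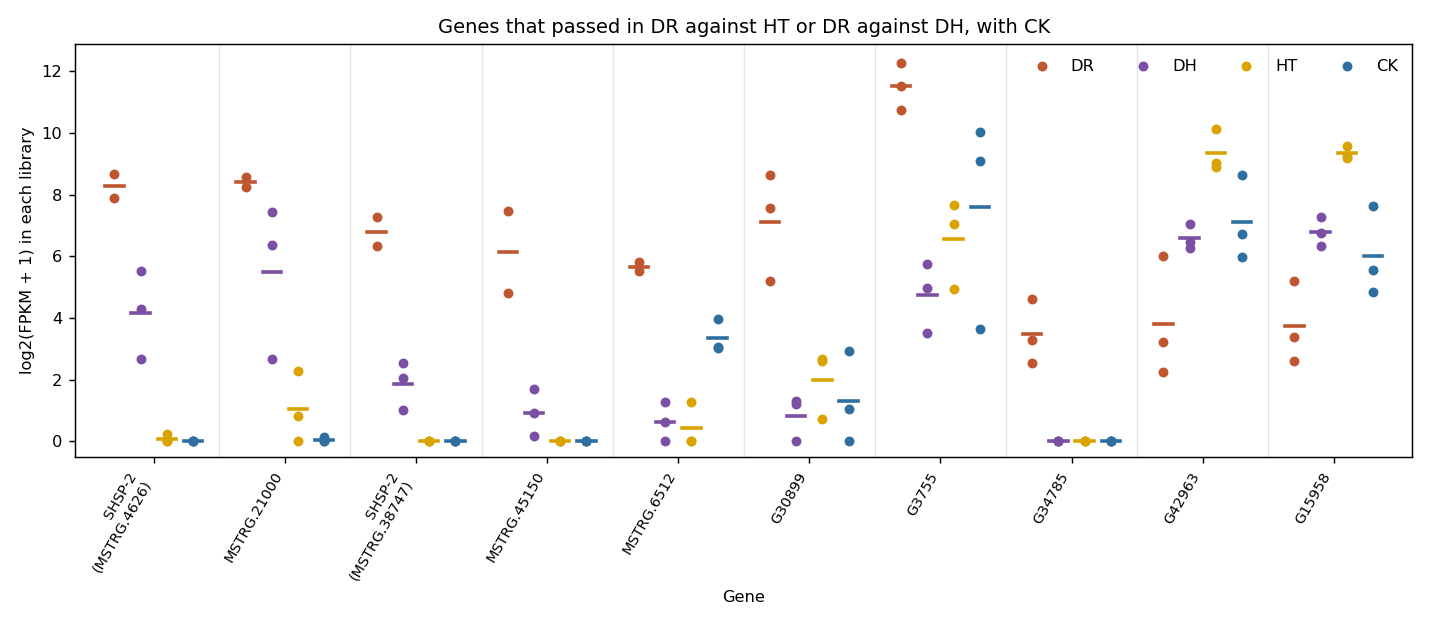
Levels of the 10 genes that passed in DR against HT or in DR against DH, as log2(FPKM + 1) in each library, in the order DR, DH, HT and CK, with a bar at the group mean. DR shows 2 points for loci that DR2 does not list. The DR libraries of both SHSP-2 loci stand above all DH, HT and CK libraries.

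Of the 24 lowered genes, 22 were also called lowered in HT against CK and 23 in DH against CK, beside 0.472% and 0.968% of all genes tested (limma). Their median log2 fold changes there were -4.16 and -4.77. Of the 72 raised genes, 19 and 31 were also called raised, beside 0.569% and 0.577%. All these comparisons use the same CK libraries, so the counts are not independent. Several genes raised by drought also stood high in the other stresses. MLS had 116 to 1752 FPKM in DH and 138 to 2576 FPKM in HT, beside 931 to 1524 FPKM in DR. RAP2-3 had 395 to 1922 FPKM in DH and 186 to 1370 FPKM in HT, beside 363 to 836 FPKM in DR. The DR values of both genes lay inside or overlapped these ranges, and the direct tests against HT did not pass (adjusted p = 0.786 for MLS and 0.987 for RAP2-3). CHIT1B (G27895) had 17.6 to 1148 FPKM in DH and 4.01 to 194 FPKM in HT, each library of HT below the 1102 to 2479 FPKM of DR, without passing (log2 fold change of DR over HT 5.42, adjusted p = 0.188). EDL3 had 97.4 to 3374 FPKM in DH and 13.4 to 285 FPKM in HT, beside 357 and 697 FPKM in DR. CRD1 (G16398), one of the leaf markers, had 15.8 to 286 FPKM in DH and 48.8 to 273 FPKM in HT, all below the 687 to 1718 FPKM of DR, and did not pass against either (log2 fold change 4.08 with adjusted p = 0.415 against DH, 2.92 with adjusted p = 0.641 against HT). The leaf marker sums were 38.6 to 570 FPKM in DH and 138 to 462 FPKM in HT, below those of DR, and the part of this in the differences from HT and DH was not tested.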

How the data were processed

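RNA of 12 pools was sequenced, 3 each of DR, HT, DH and CK. Per the submitters' processing notes, the authors used cutadapt 1.9, HISAT2 2.0.4 and StringTie 1.3.4d, and they deposited FPKM per gene and library, which are normalized for gene length and library size. The labels and the methods name different extraction reagents, read trimming tools and sequencers. The reads went to the sweetpotato genome that the study cites, whose build is not given by name in the sources used here. Whole reads could not be recovered from the FPKM, the depth is unknown, and no count model was run. Near-identical copies in this polyploid can share reads.

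Differences were fitted in R 4.3.3 with limma 3.58.1 (trend, two-sided) on log2(FPKM + 1) over all 12 libraries in 1 model, for the 12295 genes that reached 1 FPKM in 3 or more libraries. The 1087 genes that DR2 does not list were fitted on the other libraries. P-values were adjusted by Benjamini-Hochberg, and a call needed an adjusted p below 0.05 together with a log2 fold change larger than 1 in size. The fit was tested on simulated data. Summaries were made with pandas 2.3.3, scipy 1.17.1, numpy 2.4.6 and matplotlib 3.10.9 under Python 3.11.15. The 227 symbols come from supplementary tables of genes that the study had selected on these libraries, so list directions are not independent evidence, and no sequence or annotation matched these gene IDs otherwise. Genes named are list members that passed, the 3 members that changed most in each list, symbol-bearing genes among the 12 raised and 12 lowered most without overlap and at most 3 each way without a symbol, symbol-bearing genes that passed against HT or DH, and other copies of a passing list member. HSP17.4B, HSP90, CAL1, RAB28, LBD4, GDH3, BACOVA_02659 (G35534) and aq_1250 (MSTRG.27315) were named outside this rule after their values were seen. Members and lists were chosen with earlier results of these data known. Same-numbered DR and CK libraries deviated together from their group means (correlations of 0.60, 0.37 and 0.19), and by this the numbers were treated as pairing them. DR2 correlated more with CK3 (0.50) than with CK2, and the sources do not say what the numbers mark. The block also spans HT and DH, whose numbers were not checked in this way. It was drawn from these same libraries, so calls gained with it are no independent evidence. The fit with this block stands beside a result where it changes a call.

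Alternatives were another pseudocount, filter, scaling or set of libraries, array weights, the block, and each library left out in turn.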

Additional observations from a re-analysis of the deposited data

How the results depend on the processing

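Depth is unknown without counts, and 3 pools a group limit the precision. Directions of the genes named by the rule held under all alternatives run except for 7 uncalled genes. GDH3, named outside it, also turned. RAB28, likewise named outside it, had no signal left in DR or CK without DR1. With array weights VTC2 (0.39), At5g28840 (0.17) and TIP1-1 (0.16) lay above CK, without CK1 PIP2-7 (0.85), TIP1-1 (0.89), CRD1 G16398 (0.34) and AUX1 (0.16) did, and without CK3 TUBB5 (0.12) did. With 1 library left out, the log2 fold change ran from -4.32 to 0.85 for PIP2-7, from -1.21 to 0.89 for TIP1-1, from -1.02 to 0.34 for CRD1 G16398, from -1.91 to 0.16 for AUX1 and from -2.41 to 0.12 for TUBB5. The causes of these shifts and of those below were not tested.

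For DR against CK, with 72 raised and 24 lowered genes, the counts were 17 and 5 without a filter, which tests 40167 genes, 121 and 60 with upper-quartile scaling, 120 and 69 with quantile normalization and 730 and 249 with array weights, which shifted the median over all genes by 0.45. A pseudocount of 0.1 gave 13 lowered genes, median-of-ratios scaling 62, and a fit of only DR and CK 10. The replicate block, which uses the pairing of the numbers, gave 110 and 41. It added calls for SAHH, co-1, LTP1, CYP75B2 and LOX2.1 and removed none of the 24 calls named by the rule. Leaving out 1 library gave 23 to 106 raised and 3 to 35 lowered genes.

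For DR against HT, with 6 higher and 2 lower genes, the higher genes numbered 3 without a filter, 1 with a minimum in 6 libraries, 0 over genes listed in all tables, 17 with upper-quartile, 10 with median-of-ratios and 12 with quantile scaling, 21 with only the groups compared, 12 with the replicate block and 18 with array weights. The lower genes numbered 0 without a filter, 1 with a minimum in 6 libraries and 0 over genes listed in all tables. Leaving out 1 library gave 2 to 15 higher and 0 to 23 lower genes.

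For DR against DH, with 5 higher genes and 0 lower, the higher genes numbered 0 with a pseudocount of 0.1, without a filter or with a minimum in 6 libraries, 1 over genes listed in all tables, 3 with upper-quartile scaling or with only the groups compared, 2 with median-of-ratios or quantile scaling and 707 with array weights, which also gave 24 lower genes. Leaving out 1 library gave 0 to 14 higher genes and 0 to 0 lower ones. For the difference of the drought effects, 0 genes passed either way, against 2 positive with a pseudocount of 0.1 and 439 positive and 39 negative with array weights, and 0 to 49 positive and 0 to 1 negative with 1 library left out.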
